A study of Mus musculus with 23 samples.

Results

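The mitochondrial ribosomal protein genes are the nuclear genes, named Mrpl and Mrps, that encode the proteins of the mitochondrial ribosome. All rows of the deposited count table were taken whose symbol is Mrpl or Mrps followed by a number and at most 1 letter. The rule used no measured value and found 77 of the 48397 symbols, of which 48 were Mrpl and 29 Mrps. They were followed in poly(A) RNA sequencing of cells sorted from Met1-iRFP breast tumours of FVB mice, an inbred strain. Met1 is a mouse mammary carcinoma line, and its cells carry iRFP, a fluorescent label in the near infrared by which they were sorted. The 4 groups were cancer cells (iRFP+) of exercised mice (7 libraries), cancer cells of sedentary mice (8 libraries), tumour microenvironment (TME) cells (iRFP-) of exercised mice (4 libraries) and TME cells of sedentary mice (4 libraries). All groups share the FVB host and the 1 tumour line. The sex and age of the mice, the exercise schedule and the gates of the sort were not known here. Nothing in the labels says that libraries of a group came from separate mice, so p-values measure the spread between these libraries.

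Mitochondria keep a small genome of their own, and its few mRNAs for respiratory chain subunits are read by a ribosome that is built inside the organelle. The ribosomal RNA comes from the mitochondrial genome, while every protein of the ribosome is encoded in the nucleus, made on cytosolic ribosomes and imported. Part of these proteins descend from bacterial ribosomal proteins, and others were added during the evolution of mitochondria. The small subunit binds the mRNA and the large subunit forms the peptide bond. The cytosolic ribosomal protein genes (Rpl and Rps), which build the ribosome of the cytoplasm, are given beside them.

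By their place in the mammalian ribosome, 50 of the 77 encode large subunit proteins, 26 encode small subunit proteins and 1 is in neither. The symbol misleads as to subunit in 2 members: Mrps18a (mL66) and Mrps30 (mL65) are proteins of the large subunit. Mrps36, the member in neither, encodes KGD4, a subunit of the 2-oxoglutarate dehydrogenase complex. Of the 76 ribosomal members, 46 have a bacterial counterpart and 30 are specific to mitochondria. The genes lie on 17 chromosomes, with 10 on chromosome 11, 8 on chromosome 17 and 7 on chromosome 6. One protein of the ribosome, Mrpl58, was listed under its older symbol Ict1 and so lay outside the rule.

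A count could be tested for 76 of the 77 members. Mrpl53 (chr6:83109040-83109939, plus strand, mm10) had no count in any library. A floor set at 3 counts per library would be 0.0770 to 0.281 CPM (counts scaled by library size). In GENCODE M21, 88.0% of the exon bases of Mrpl53 are shared with Gm42688 and Ccdc142os on the same strand. How the authors counted shared reads is not known here, so the lack of counts sets no limit on its level. Of the 77 members, 32 shared exon bases with another gene, 25 of them at least 5% and 10 at least 20%. The largest shares among counted members were 77.8% for Mrps34 (with Mapk8ip3 and Nme3), 69.8% for Mrps25 (with Nr2c2) and 36% for Mrpl19 (with Gcfc2). Mrps6 shares 19.9% of its exon bases. Whether the authors counted by strand is not known here, so the levels of these members are uncertain.

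The libraries held 15924340 to 37388479 counts. The members took 0.167% to 0.265% of them and the 79 cytosolic ribosomal protein genes 0.951% to 1.85%. Mitochondrially encoded transcripts took 1.86% to 3.90% of counts in cancer libraries and 2.61% to 8.63% in exercised TME libraries. In sedentary TME libraries they took 42.2% in replicate 4, 14.5% in replicate 6, 3.22% in replicate 9 and 6.57% in replicate 10, so replicates 4 and 6 stand apart. Pan-leukocyte markers (8 genes) summed to 31.3 to 73.6 CPM in exercised and 19.6 to 38.8 CPM in sedentary cancer libraries, against 170 to 1009 CPM in exercised and 242 to 319 CPM in sedentary TME libraries. Endothelial markers (8 genes) summed to 6.63 to 11.2 CPM and 10.005 to 14.8 CPM in those cancer groups, and to 38.2 to 112 CPM and 84.5 to 415 CPM in those TME groups. Fibroblast markers (8 genes) summed to 1015 to 1274 CPM and 1192 to 1400 CPM in the cancer groups, and to 1349 to 2413 CPM and 1588 to 2960 CPM in the TME groups. Epithelial and tumour markers (5 genes tested) summed to 10992 to 21540 CPM and 11985 to 20346 CPM in the cancer groups. In the TME groups they still summed to 10836 to 15360 CPM and 10506 to 13556 CPM, so the sums were alike in the iRFP- libraries. A sum is carried by the most abundant genes. Their mean log2 CPM was 5.42 and 5.61 in the exercised and sedentary cancer groups, and 5.83 and 5.95 in the TME groups. Of these 5 marker genes, Spp1 was called higher (0.33) and Cdh1 lower (-2.81) in cancer cells, and the source of the transcripts was not tested.

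Promoters of nuclear genes with mitochondrial roles are known for a few short motifs, and these were looked for in the members. In RefSeq (GRCm38.p6), 68 of the 77 members matched a promoter of 250 bases before and 50 bases after the start. The binding motif of NRF1, nuclear respiratory factor 1, a regulator of mitochondrial genes (letters GCGCATGC), was in 11.8% of them, against 3.45% of 58 cytosolic ribosomal protein promoters, 2.78% of all 27025 promoters and 4.98% of the 11174 whose gene was tested here. The ETS motif (CCGGAAG), bound by GABP among others, was in 36.8% of member promoters, 41.4% of cytosolic ribosomal protein promoters, 9.08% of all promoters and 16.6% of those tested. The YY1 motif (AAGATGGCG) was in 11.8%, 5.17%, 1.49% and 2.87% of these sets in the same order. The other 4 motifs were CACGTG, the E-box, in 7.35% of members against 9.59% of tested promoters, CCAAT in 39.7% against 38.1%, GGGCGG in 48.5% against 60.7%, and TATAAA in 5.88% against 7.77%. Both strands were searched, each motif by its exact letters, and none of the 7 strings contains another. A match describes letters and is not a binding site.

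The 80 bases just upstream of the RefSeq start are shown for 4 members that hold these motifs and for 4 that the comparisons below turn on, 5' to 3' on the gene's strand, with matches in capitals. Mrpl32 (chr13:14613038-14613117 on the minus strand) holds NRF1 letters on both strands around GGGCGG. Mrpl22 (chr11:58171584-58171663 on the plus strand) holds ETS and NRF1 letters side by side, and Mrpl43 (chr19:45006443-45006522 on the minus strand) holds ETS letters at 2 places. Mrpl36 (chr13:73330929-73331008 on the plus strand) holds the E-box and, on the opposite strand, the YY1 letters. Mrpl3 (chr9:105053188-105053267 on the plus strand) and Mrps22 (chr9:98601680-98601759 on the minus strand), both higher in cancer cells, each hold 1 ETS match. Mrpl28 (chr17:26123423-26123502 on the plus strand), lower in cancer cells, holds CCAAT on both strands in 1 overlapping run. Mrps21 (chr3:95871515-95871594 on the minus strand), also lower, holds none of the 7 in these bases. In the longer promoters searched above, Mrps21 does hold ETS letters, Mrpl3 also holds CCAAT and Mrps22 also GGGCGG.
Mrpl32: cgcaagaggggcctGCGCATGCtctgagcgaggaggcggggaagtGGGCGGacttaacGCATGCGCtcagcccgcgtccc
Mrpl22: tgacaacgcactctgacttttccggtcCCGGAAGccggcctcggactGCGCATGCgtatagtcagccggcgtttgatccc
Mrpl43: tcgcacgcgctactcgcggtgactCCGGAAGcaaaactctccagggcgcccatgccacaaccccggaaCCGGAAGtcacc
Mrpl36: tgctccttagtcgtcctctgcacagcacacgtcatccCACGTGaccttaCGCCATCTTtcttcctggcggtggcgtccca
Mrpl3: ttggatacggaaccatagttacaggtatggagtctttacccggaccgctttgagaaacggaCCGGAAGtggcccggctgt
Mrps22: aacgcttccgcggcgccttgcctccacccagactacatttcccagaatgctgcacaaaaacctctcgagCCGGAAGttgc
Mrpl28: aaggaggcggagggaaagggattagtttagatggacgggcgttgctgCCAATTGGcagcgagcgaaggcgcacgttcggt
Mrps21: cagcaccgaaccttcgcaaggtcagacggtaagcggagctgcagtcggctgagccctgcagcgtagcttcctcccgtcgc

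Split by the later calls between sorts, the counts were small. ETS letters were in 2 of 5 promoters of members called higher in cancer cells, in 12 of 29 of those called lower and in 10 of 33 of those not called. NRF1 letters were in 0, 4 and 4 of the same promoters, and no test was made on these counts.

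Many members start close to the start of a gene on the opposite strand. A start of a protein-coding gene on the opposite strand lay within 1000 bp of the start of 33 of the 77 members (42.9%). This held for 16 of 79 cytosolic ribosomal protein genes (20.3%), 10.8% of all protein-coding genes and 15.3% of those that passed the filter over all libraries. Mrps11 and Mrpl46, a small and a large subunit protein on chromosome 7, are each other's partner. Mrpl36 is paired with Ndufs6, a subunit of respiratory complex I, Mrpl43 with Twnk, the mitochondrial DNA helicase, and Mrps12 with Sars2, the mitochondrial seryl-tRNA synthetase. Mrpl49 is paired with Fau, which encodes a protein of the cytosolic ribosome. The rule takes starts on either side, so some pairs overlap. In the gene models, the pairs of Mrps11, Mrpl36 and Mrpl43 overlap at their starts, and those of Mrps12 and Mrpl49 lie back to back.

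Levels differed widely between members. Per kilobase of exon, averaged over the 4 groups, the highest 5 were Mrpl28 (63.3 CPM per kb), Mrps23 (42.2 CPM per kb), Mrpl20 (34.2 CPM per kb), Mrpl38 (34.1 CPM per kb) and Mrpl10 (32.1 CPM per kb). The lowest counted members were Mrpl23 (0.392 CPM per kb), Mrps36 (0.695 CPM per kb), Mrpl48 (1.69 CPM per kb), Mrps18b (2.26 CPM per kb) and Mrps10 (2.39 CPM per kb). Mrpl23 and Mrps36 rested on few reads: Mrpl23 averaged 1.62 ± 0.39 CPM in exercised and 1.67 ± 0.61 CPM in sedentary cancer cells (SD, n = 7 and 8), and 2.54 ± 0.63 CPM in exercised and 1.82 ± 0.72 CPM in sedentary TME cells (SD, n = 4 each). The table also lists Mrpl and Mrps pseudogenes, and reads that the authors' counting could split between a gene and its copy cannot be placed here.

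The 3 Mrps18 genes encode paralogs at different places of the ribosome, and their levels differed. Mrps18a, of the large subunit, had 11.8 CPM per kb, while Mrps18c, the bS18m of the small subunit, had 7.70 CPM per kb and Mrps18b, mS40 of the small subunit, 2.26 CPM per kb. Mrps18b shares 30.5% and Mrps18c 23.2% of its exon bases with an overlapping gene.

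Taken as a list, the members were lower in cancer than in TME libraries on average, as were the cytosolic genes. The mean log2 CPM over the 76 members was 4.30 ± 0.06 in exercised cancer cells, 4.33 ± 0.12 in sedentary cancer cells, 4.48 ± 0.17 in exercised TME cells and 4.56 ± 0.10 in sedentary TME cells (SD over 7, 8, 4 and 4 libraries). The ranges overlapped: the highest cancer library, sedentary replicate 7, reached 4.52, and the lowest TME library, exercised replicate 10, stood at 4.28. The 79 cytosolic genes followed the same order of groups, with 6.56 ± 0.15, 6.65 ± 0.31, 6.95 ± 0.19 and 7.10 ± 0.28. Within the exercised TME group the 4 libraries had the same order on both lists. Other groups did not: exercised cancer replicate 10 was highest of its group on the cytosolic list and the fifth of 7 on the member list, and sedentary TME replicates 6 and 9 changed places. Large subunit members stood 0.24 to 0.50 above small subunit members in each of the 23 libraries on this scale, which does not correct for gene length.

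**Figure D1:**
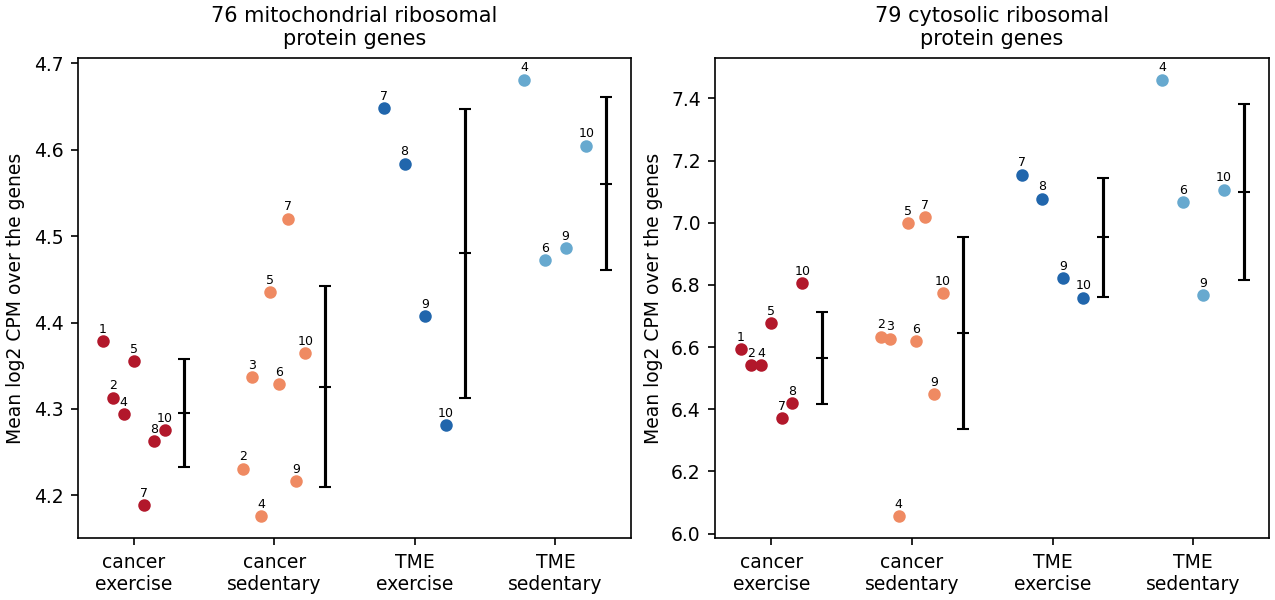
Mean log2 CPM over 76 mitochondrial (left) and 79 cytosolic (right) ribosomal protein genes in each library, with the replicate number above each point and the group mean ± SD as a bar. TME libraries lie mostly above cancer libraries on both panels, and sedentary TME replicate 4 is highest on both.

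The members' median spread between libraries was below that of genes at large, without matching for level. Group means of log2 CPM were 4.30 to 4.56 over the members and 3.05 to 3.30 over all genes. Lower quartiles of the SD were closer, at 0.12, 0.20, 0.17 and 0.17 against 0.14, 0.19, 0.18 and 0.17 over all genes, in the order of groups below. Their median SD of log2 CPM within a group was 0.17 in exercised and 0.23 in sedentary cancer cells, and 0.23 in exercised and 0.23 in sedentary TME cells, against 0.24, 0.30, 0.31 and 0.30 over all 17503 genes tested and 0.22, 0.34, 0.29 and 0.31 over the cytosolic genes.

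The comparison of sorts asks how the cancer cells differ from the cells around them. Averaged over both treatments, 34 of 76 members (44.7%) were called lower in cancer cells and 5 (6.58%) higher, at an adjusted p under 0.05 in edgeR's quasi-likelihood test with Benjamini-Hochberg adjustment over all genes. Over all 17503 genes, 25.3% were called lower and 27.3% higher. The members' log2 fold changes had a median of -0.20, against 0.01 over all genes, and 56 of 76 were below 0 (73.7%, against 49.4% of all genes). The cytosolic ribosomal protein genes lay further down, with 52 of 79 (65.8%) called lower, 2 called higher and a median change of -0.40. No member separated all 15 cancer libraries from all 8 TME libraries, which 4.35% of all genes did upwards and 5.19% downwards. Leukocyte markers (8 of 8 called lower in cancer cells, median -3.82), endothelial markers (8 of 8, median -4.15), fibroblast markers (6 of 8, median -1.81) and mitochondrially encoded mRNAs (13 of 13, median -2.17) moved with this comparison, and their part in it was not tested. In bulk samples, fewer cells of a type and less RNA per cell cannot be told apart.

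Both subunits and both evolutionary classes were on the low side. Large subunit members counted 23 lower and 3 higher of 49, with a median of -0.22, and small subunit members 11 lower and 2 higher of 26, with a median of -0.16. Members with a bacterial counterpart counted 22 lower and 2 higher of 46 (median -0.21), and those specific to mitochondria 12 lower and 3 higher of 29 (median -0.12). Among the 52 members that share under 5% of their exon bases with other genes, 21 were called lower and 5 higher. The difference between these classes was not tested.

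**Figure D2:**
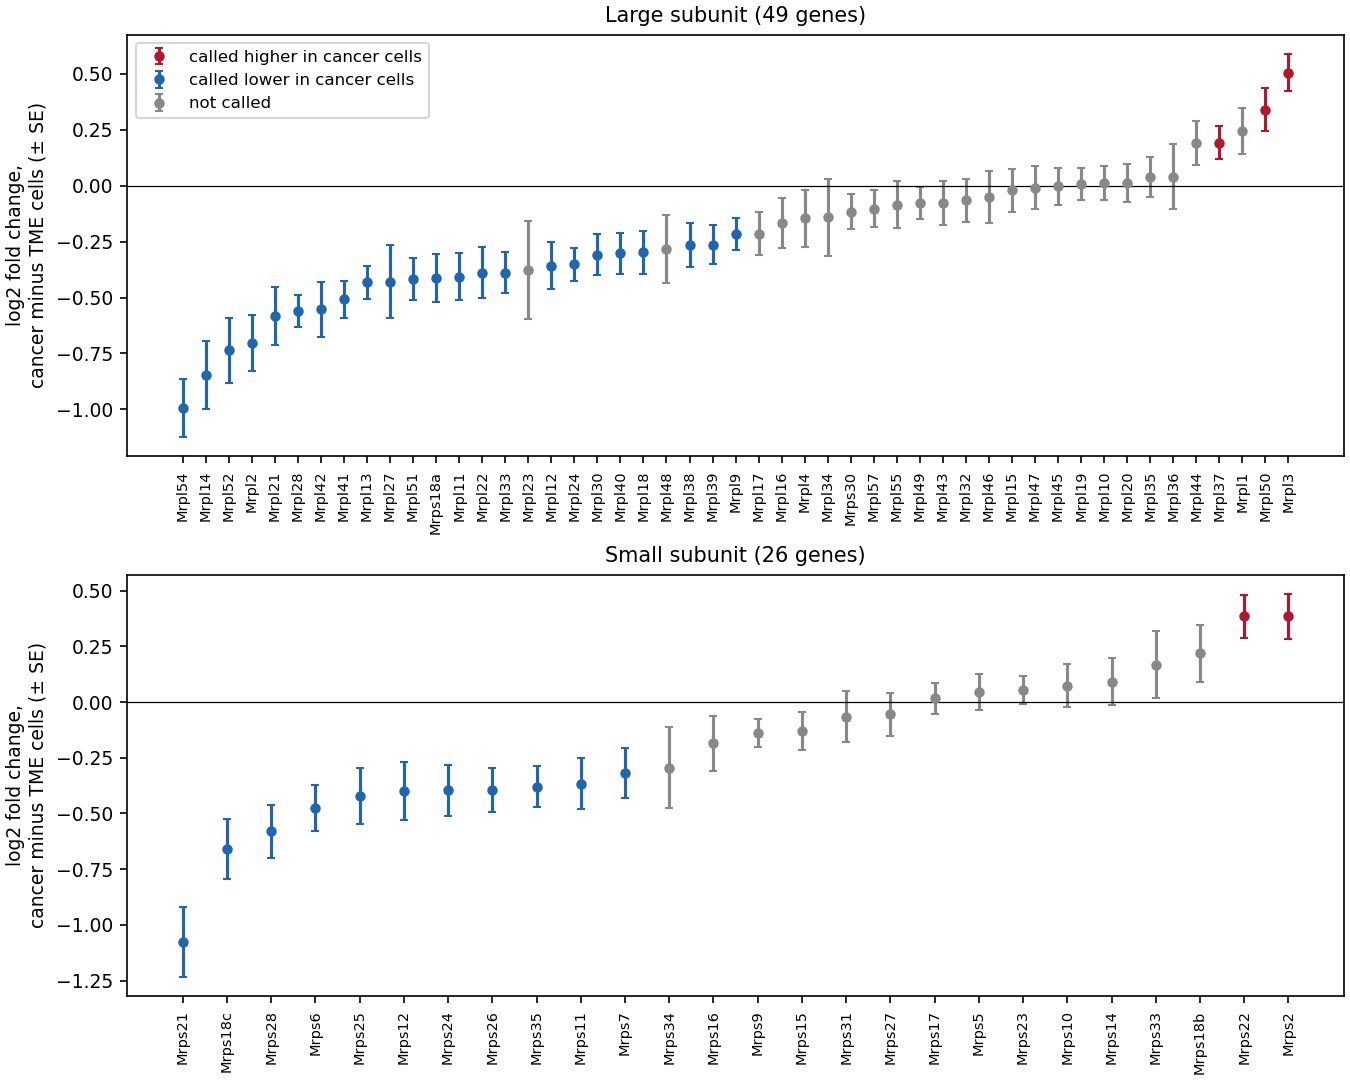
Log2 fold change of each member, cancer minus TME cells averaged over both treatments, with its standard error, for 49 large subunit (top) and 26 small subunit (bottom) genes ordered by value. Calls lower in cancer cells reach -1.08 for Mrps21 and -0.99 for Mrpl54, and calls higher reach 0.51 for Mrpl3.

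Mrpl28, a large subunit protein with a bacterial counterpart (bL28m) and the member with the highest level per length, had the smallest p of those lower in cancer cells. It ranged from 59.9 to 72.2 CPM (median 66.0) in exercised and from 57.5 to 95.1 CPM (median 74.1) in sedentary cancer cells. The TME libraries had 106, 102, 88.1 and 88.9 CPM in exercised and 106, 106, 104 and 131 CPM in sedentary mice. Only the highest sedentary cancer library, at 95.1 CPM, passed the lowest TME libraries. The gene lies at chr17:26123500-26126613 on the plus strand, and its log2 fold change was -0.56 ± 0.07 (SE, adjusted p = 2.43e-07, edgeR).

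Mrpl54 (chr10:81264713-81266934, minus strand), a mitochondria-specific large subunit protein (mL54), had 8.74 to 12.1 CPM (median 9.93) in exercised and 8.74 to 14.8 CPM (median 11.5) in sedentary cancer cells. In TME cells it had 29.8, 20.6, 15.8 and 12.2 CPM in exercised and 35.6, 22.5, 17.8 and 22.8 CPM in sedentary mice, so that of the TME libraries only exercised replicate 10 lay within the range of the cancer libraries. The log2 fold change was -0.99 ± 0.13 (SE, adjusted p = 2.68e-07, edgeR). Mrps21 (chr3:95862634-95871519, minus strand), the small subunit protein bS21m, had the largest log2 fold change of any member, -1.08 ± 0.16 (SE, adjusted p = 1.90e-06, edgeR). Its levels were 8.28 to 12.6 CPM (median 9.19) in exercised and 7.92 to 17.2 CPM (median 12.3) in sedentary cancer cells, against 33.7, 21.6, 12.9 and 14.6 CPM in exercised and 34.8, 27.8, 18.0 and 23.5 CPM in sedentary TME cells. Exercised TME replicates 9 and 10 fell within the range of the cancer libraries.

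Mrpl41 (mL41) had 16.1 to 19.6 CPM (median 17.0) in exercised and 12.7 to 19.7 CPM (median 18.0) in sedentary cancer cells. Exercised TME cells had 26.8, 22.6, 18.7 and 18.2 CPM and sedentary TME cells 29.7, 25.99, 29.7 and 29.4 CPM, so every sedentary TME library lay above all cancer libraries. Its log2 fold change was -0.51 ± 0.08 (SE, adjusted p = 8.64e-06, edgeR), and with offsets for gene length and GC content it was -0.18 and no longer called (adjusted p = 0.0731). Mrps18c (bS18m) had 5.02 to 7.69 CPM (median 5.68) in exercised and 4.89 to 8.62 CPM (median 7.06) in sedentary cancer cells, against 11.2, 8.79, 8.02 and 10.2 CPM in exercised and 15.9, 9.28, 7.19 and 10.8 CPM in sedentary TME cells. It fell by 0.66 on the log2 scale (SE 0.13, adjusted p = 0.000147, edgeR). Mrps6, whose bacterial counterpart bS6 binds bS18 in the bacterial small subunit, averaged 16.9 ± 1.6 CPM in exercised and 19.5 ± 3.9 CPM in sedentary cancer cells, and 24.3 ± 5.5 CPM in exercised and 26.3 ± 4.1 CPM in sedentary TME cells (SD), a log2 fold change of -0.48 ± 0.10 (SE, adjusted p = 0.000282, edgeR).

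The other members with the smallest p on the low side were of both kinds. Mrpl13 (uL13m) averaged 52.0 ± 1.6 CPM in exercised and 56.5 ± 7.3 CPM in sedentary cancer cells, and 72.3 ± 11 CPM in exercised and 74.1 ± 11 CPM in sedentary TME cells (SD), with a log2 fold change of -0.43 ± 0.07 (SE). Mrpl2 (uL2m), whose bacterial counterpart lies close to the site of peptide bond formation, fell by 0.70 (SE 0.12), and Mrpl14 (uL14m), at the face that meets the small subunit, fell by 0.85 (SE 0.15) on the same scale. Mrpl52 (mL52) fell by 0.74 (SE 0.14) and Mrps28 (bS1m) by 0.58 (SE 0.12). Adjusted p for these 5, in edgeR, ran from 1.66e-05 for Mrpl13 to 0.000146 for Mrps28.

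Other members called lower in cancer cells had smaller differences. Mrpl24 (uL24m) fell by 0.35 (SE 0.07) and Mrpl33 (bL33m) by 0.39 (SE 0.09) on the log2 scale, with adjusted p of 0.000221 and 0.000659 in edgeR. Mrpl24 had 31.1 to 37.2 CPM (median 32.6) in exercised and 30.3 to 45.0 CPM (median 36.5) in sedentary cancer cells, against 45.2, 48.7, 38.4 and 45.2 CPM in exercised and 52.1, 44.9, 37.9 and 47.4 CPM in sedentary TME cells. The cancer and TME ranges of Mrpl24 overlapped.

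The members with the highest level per length, apart from Mrpl28, differed less between the sorts. Mrps23 averaged 62.1 ± 4.9 CPM in exercised and 72.3 ± 8.2 CPM in sedentary cancer cells, and 62.9 ± 5.0 CPM in exercised and 66.2 ± 3.3 CPM in sedentary TME cells (SD), with a log2 fold change of 0.05 ± 0.06 (SE). Mrpl20 (bL20m) and Mrpl10 (uL10m, the base of the stalk) both stood at 0.01, with SE of 0.08 and 0.08, and were not called. Mrpl38 (mL38) averaged 78.8 ± 9.9 CPM in exercised and 78.9 ± 14 CPM in sedentary cancer cells, and 88.1 ± 25 CPM in exercised and 101.8 ± 5.4 CPM in sedentary TME cells (SD), and was called lower at -0.26 ± 0.10 (SE, adjusted p = 0.0253, edgeR). Of the members lowest per length, Mrps10 (uS10m, 0.07 ± 0.10), Mrpl48 (-0.28 ± 0.15) and Mrps36 (0.09 ± 0.35) were not called between the sorts either.

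Mrpl12 (bL12m) forms the stalk of the large subunit that translation factors dock on, and its bacterial counterpart is present in several copies per ribosome. It had 25.6 to 31.6 CPM (median 28.7) in exercised and 22.5 to 36.98 CPM (median 29.1) in sedentary cancer cells, against 48.1, 30.0, 25.1 and 30.0 CPM in exercised and 47.0, 42.8, 33.5 and 40.2 CPM in sedentary TME cells. The groups overlapped. Its log2 fold change was -0.36 ± 0.10 (SE, adjusted p = 0.00474, edgeR), and with offsets for gene length and GC content it was 0.01 ± 0.08 and no longer called. Mrps18a (mL66) fell by 0.41 (SE 0.11, adjusted p = 0.00184, edgeR), while Mrps18b and Mrps30 passed in neither direction, with log2 fold changes of 0.22 ± 0.13 and -0.12 ± 0.08 (SE).

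Mrpl3 (chr9:105053239-105079888, plus strand; uL3m), whose bacterial counterpart reaches towards the peptidyl transferase centre, was the clearest of the 5 members called higher in cancer cells. Mrpl3 ranged from 73.5 to 91.1 CPM (median 82.6) in exercised and from 66.1 to 104 CPM (median 87.4) in sedentary cancer cells. The TME libraries had 57.8, 72.9, 70.9 and 54.4 CPM in exercised and 43.7, 52.3, 63.6 and 59.8 CPM in sedentary mice. Cancer and TME libraries met only at the lowest sedentary cancer library. The log2 fold change was 0.51 ± 0.08 (SE, adjusted p = 1.04e-05, edgeR).

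Mrps22 (mS22), a small subunit protein altered in an inherited human mitochondrial disease, had 11.4 to 15.9 CPM (median 12.7) in exercised and 10.4 to 14.8 CPM (median 13.0) in sedentary cancer cells, against 11.0, 13.0, 11.1 and 8.34 CPM in exercised and 10.1, 8.68, 8.99 and 7.82 CPM in sedentary TME cells. Its log2 fold change was 0.39 ± 0.10 (SE, adjusted p = 0.00135, edgeR), and the 4 sedentary TME libraries lay below all cancer libraries. Mrps2 (uS2m) averaged 36.6 ± 5.1 CPM in exercised and 35.6 ± 4.5 CPM in sedentary cancer cells, and 28.8 ± 3.8 CPM in exercised and 26.4 ± 7.4 CPM in sedentary TME cells (SD), a log2 fold change of 0.39 ± 0.10 (SE). Mrpl50 (mL50) and Mrpl37 (mL37) rose by 0.34 ± 0.10 and 0.19 ± 0.07 (SE) on this scale, with adjusted p of 0.00378 and 0.0305 in edgeR. Without sedentary TME replicates 4 and 6, the calls for Mrps2 (0.24), Mrpl50 (0.15) and Mrpl37 (0.16) were lost, with adjusted p of 0.0878, 0.236 and 0.165 in edgeR. The call for Mrpl37 was also lost with RLE size factors and in DESeq2, with adjusted p of 0.125 and 0.152.

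**Figure D3:**
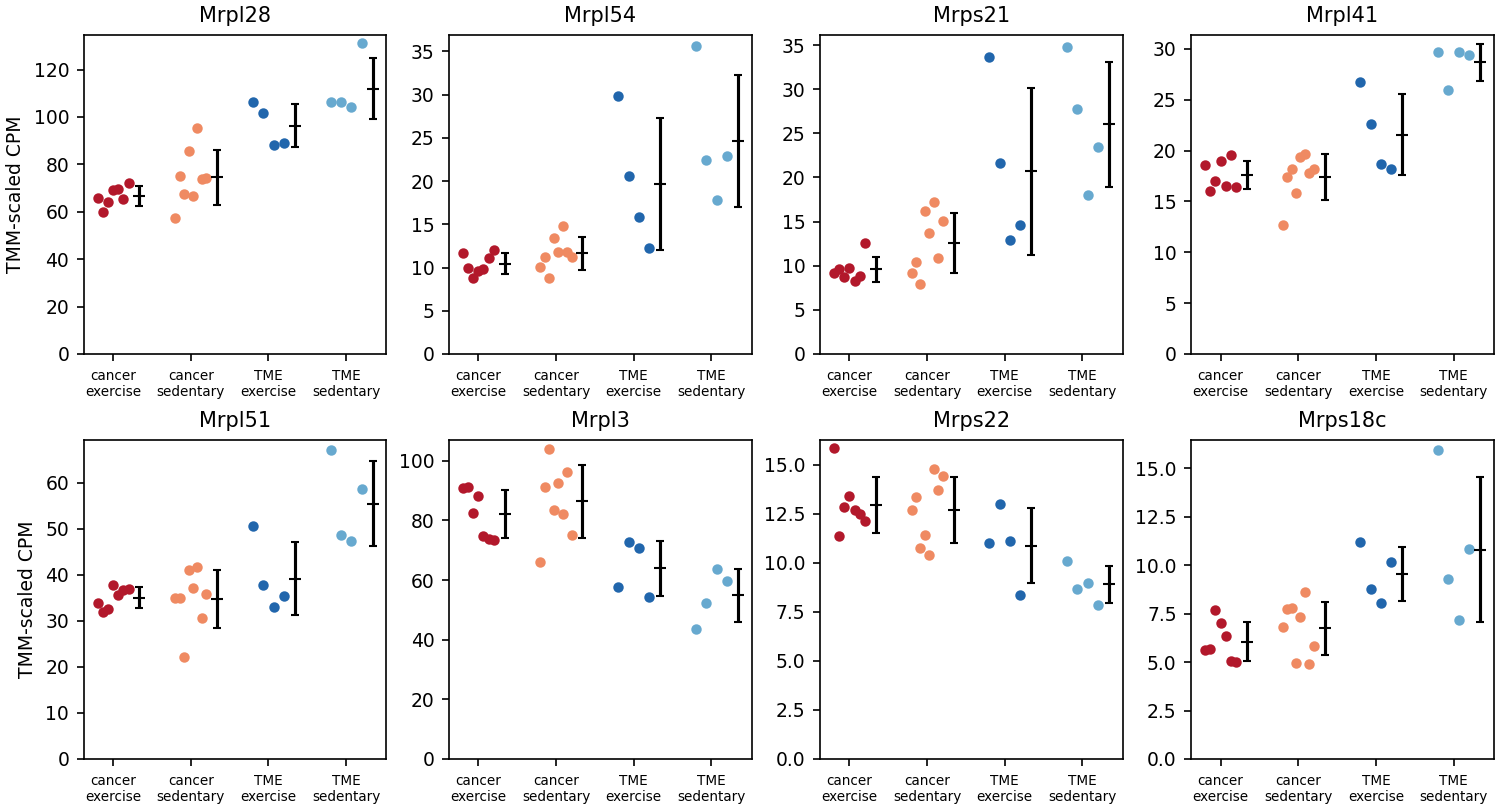
TMM-scaled CPM of 8 members in each library by group, with the group mean ± SD. Mrpl28, Mrpl54, Mrps21, Mrpl41, Mrpl51 and Mrps18c are lower in cancer libraries, and Mrpl3 and Mrps22 are higher, with some overlap between cancer and TME libraries in each panel.

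Split by treatment, the members' median lay below 0 in both. Between the exercised groups, 16 of 76 members (21.1%) were called lower in cancer cells and 3 (3.95%) higher, with a median of -0.17, where 17.3% of all genes were called lower and 19.5% higher, so the lower share was near that of all genes. All 3 exercised cancer and TME pairs of the same replicate number deviated together (r = 0.14 to 0.24), but nothing states that the numbers pair the samples. Same-numbered pairs of different treatments reached 0.13 between the sorts and 0.23 within TME cells. A block fit of this contrast rests on those 3 exercised pairs. With the replicate number within each treatment as a block, 10 members (13.2%) were called lower and 0 higher. Over all genes, 8.72% and 11.4% were called. Those 10, all among the 16, were Mrpl13, Mrpl14, Mrpl24, Mrpl28, Mrpl33, Mrpl52, Mrps6, Mrps18c, Mrps21 and Mrps28. Mrpl54 moved to -0.84 ± 0.29 (adjusted p = 0.0535) and Mrpl2 to -0.50 ± 0.27 (adjusted p = 0.224, edgeR) under the block. With length and GC offsets and no block, 14 members (18.4%) were called lower and 4 (5.26%) higher. Over all genes with a gene model, 16.3% and 15.3% were called. Of those 14 members, 7 were among the 16. Mrpl2 (-0.19), Mrpl14 (-0.27), Mrpl28 (-0.16), Mrpl52 (-0.35) and Mrps28 (-0.28) were not called with these offsets. The unblocked counts also moved with single TME libraries. Without exercised replicate 9 or 10, or sedentary replicate 4, 25, 26 and 25 members were called lower. Without exercised replicate 7 or 10, 0 were called higher, and without sedentary replicate 4, 6 or 10, 1 was. The number of all genes called higher moved in such fits too (given below). Shares of all genes are not set beside these counts, so they are not read as a feature of the members.

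Between the sedentary groups, 30 members (39.5%) were called lower and 3 higher, with a median of -0.23, where 19.8% and 21% of all genes were called lower and higher. Without sedentary TME replicates 4 and 6, 12 were called lower and 2 higher. The number of all genes called higher fell in that fit too (given below), and the share called lower is not given. The drop is therefore not read as a feature of the members. With the same block, 26 members (34.2%) were called lower and 3 (3.95%) higher, against 17.5% and 17.8% of all genes. Called lower in both treatments were 14 of 76 members (18.4%), against 13.2% of all genes, and the 1 member called higher in both, Mrpl3, stands beside 15% of all genes. With the block, 6 members (7.89%) were called lower in both, against 7.11% of all genes, and 0 higher. The 2 contrasts share no library, and across the 76 members their log2 fold changes correlated with r = 0.71 as a description, genes not being independent replicates.

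Several members were called in 1 treatment in the main fit. Mrpl51 (mL51), Mrpl42 (mL42) and Mrps35 (mS35) stood at -0.16 ± 0.14, -0.40 ± 0.18 and -0.28 ± 0.13 (SE) between the exercised groups, where they were not called. Between the sedentary groups they stood at -0.67 ± 0.13, -0.71 ± 0.17 and -0.48 ± 0.13 (SE) and were called lower in cancer cells. Mrpl42 and Mrps35 were also called lower between the exercised groups with RLE size factors, length and GC offsets or DESeq2. The same held without sedentary TME replicates 4 and 6. Adjusted p in these edgeR and DESeq2 fits was 0.0415 to 0.0480 for Mrpl42 and 0.0050 to 0.0462 for Mrps35. Mrpl51 was called in none of these fits. Mrpl51 had 31.9 to 37.7 CPM (median 35.6) in exercised and 22.1 to 41.6 CPM (median 35.4) in sedentary cancer cells, while exercised TME cells had 50.5, 37.8, 32.9 and 35.4 CPM and sedentary TME cells 67.04, 48.7, 47.3 and 58.7 CPM. Its 4 sedentary TME libraries lay above all cancer libraries. Mrpl1 (uL1m) was called higher between the exercised groups, at 0.38 ± 0.15 (SE, adjusted p = 0.0470, edgeR), and stood at 0.11 ± 0.15 between the sedentary ones. Mrpl50 was likewise called between the exercised groups, at 0.45 ± 0.14, and stood at 0.23 ± 0.13 between the sedentary ones. The exercised calls of Mrpl1 and Mrpl3 were lost with RLE size factors, no filter, length and GC offsets, DESeq2, the replicate block and without sedentary TME replicates 4 and 6, with adjusted p up to 0.378 for Mrpl1 and 0.264 for Mrpl3. Of these alternatives only the block ended the call of Mrpl50 (adjusted p = 0.0666, edgeR). The test of the difference between the treatments is given below, and it called none of them.

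The members' sort differences varied with gene length and base composition. Among the 76 members, the cancer minus TME log2 fold change correlated with log2 exon length (Pearson's r = 0.36, Spearman's rho = 0.32) and with GC content (r = -0.42, rho = -0.38), as a description across genes that share all 23 libraries. The 26 shortest members (607 to 1667 bp of exon) held 16 called lower and 0 called higher, and their fold changes had a median of -0.39. The 26 longest (3291 to 8631 bp) held 8 lower and 3 higher (median -0.09). The 26 richest in GC held 16 lower and 0 higher (median -0.36), and the 26 poorest 8 lower and 3 higher (median -0.07). All genes were not split in this way, so whether these differences are particular to the members was not tested.

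With each library's dependence on length and GC content taken out by offsets, 26 members (34.2%) were called lower and 13 (17.1%) higher, where 22.5% and 23.2% of all 16944 genes with a gene model were called, and the median over members was -0.12. Of the 26, 19 were also called lower without offsets. Mrps21 (-0.85), Mrpl54 (-0.55), Mrps18c (-0.71), Mrpl13 (-0.74), Mrpl3 (0.32) and Mrps22 (0.26) kept their calls. Mrpl28 moved to -0.17, Mrpl2 to -0.31, Mrpl14 to -0.44, Mrpl52 to -0.31 and Mrps28 to -0.26, all still called lower. Mrpl41 (-0.18), Mrps11 (-0.09) and Mrps18a (-0.21) were no longer called, and Mrpl43, not called before, was called higher at 0.30. Mrps30 (-0.46), Mrpl48 (-0.54), Mrps18b (0.41) and Mrps23 (0.28) were called with these offsets and not without them.

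**Figure D4:**
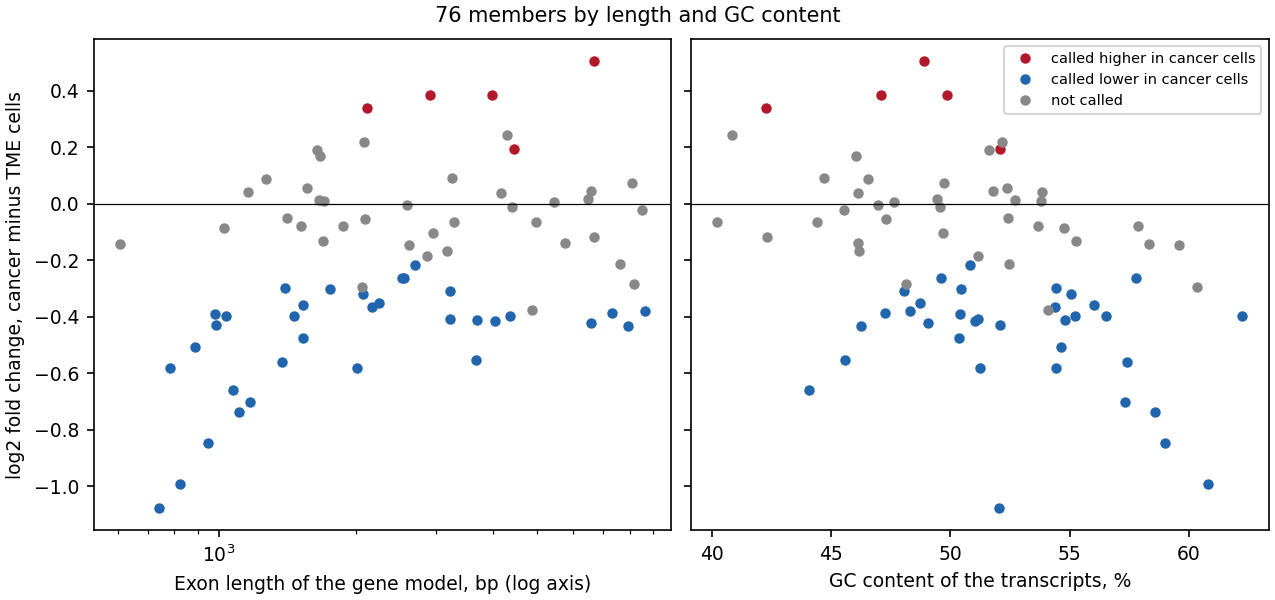
Log2 fold change of the 76 members, cancer minus TME cells averaged over both treatments, against exon length (left, log axis) and GC content of the transcripts (right). The 5 members called higher in cancer cells have 2114 to 6661 bp of exon, and the 6 with the lowest values have 739 to 1170 bp.

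The comparison of treatments asks what exercise does to these genes. In cancer cells, 0 of 76 members passed, and 0% of the 15096 genes tested were called in either direction. At an unadjusted p under 0.05, 894 genes were higher and 1007 lower, among them 0 and 8 members. DESeq2 called 65 genes higher and 81 lower, and 0 members. The members' log2 fold changes had a median of -0.06 and 57 of 76 were below 0 (75%), against a median of -0.01 and 52.6% of all genes. The cytosolic ribosomal protein genes had a median of -0.13, with 70 of 79 below 0. Pan-leukocyte markers were above 0 in 8 of 8 genes (median 0.48) and epithelial and tumour markers below 0 in 5 of 5 (median -0.31) in this comparison, and their part in the members' values was not tested.

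The 4 members with the smallest p below 0 were Mrps23, Mrps28, Mrps21 and Mrpl48. Mrps23 (mS23) had 56.8 to 67 CPM (median 63.0) in exercised and 61.3 to 88.0 CPM (median 71.6) in sedentary cancer cells, a log2 fold change of -0.26 ± 0.08 (SE, adjusted p = 0.210, edgeR). Mrps28 (bS1m) had 7.48 to 11.6 CPM (median 10.2) in exercised and 10.5 to 17.5 CPM (median 11.5) in sedentary cancer cells, at -0.45 ± 0.14 (SE, adjusted p = 0.210). The exercised and sedentary ranges overlapped for both. Mrps21 stood at -0.43 ± 0.16 and Mrpl48 (mL48) at -0.45 ± 0.18 (SE), with adjusted p of 0.279 and 0.311 in edgeR. Above 0 were Mrpl50 (0.16 ± 0.09), Mrpl1 (0.18 ± 0.11), Mrpl36 (0.22 ± 0.16) and Mrps18b (0.20 ± 0.15), with adjusted p of 0.489 to 0.617.

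In TME cells, 0 of 76 members passed, and 0% of 16273 genes were called in either direction. At an unadjusted p under 0.05, 802 genes were higher and 571 lower, among them 0 and 4 members, and DESeq2 called 28 higher and 12 lower, with 0 members. The members had a median of -0.11, with 55 of 76 below 0 (72.4%), against 0.01 and 48.7% of all genes. Large subunit members counted 40 of 49 below 0 and small subunit members 15 of 26, a difference that was not tested. The cytosolic genes had a median of -0.15, which was 0.01 without sedentary replicates 4 and 6, where the members' median was -0.07. Pan-leukocyte markers were above 0 in 8 of 8 genes (median 1.23) and endothelial markers below 0 in 8 of 8 (median -1.18) in this comparison. The 13 mitochondrially encoded mRNAs were below 0 in 13 of 13, with a median of -2.20. The part of these genes in the members' values was not tested.

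In Mrpl51, whose values are given above, only exercised TME replicate 7 lay above the lowest sedentary TME library, and the log2 fold change was -0.51 ± 0.17 (SE, adjusted p = 0.586, edgeR). Mrpl41 was at -0.43 ± 0.15, Mrps11 (uS11m) at -0.46 ± 0.20 and Mrpl37 at -0.24 ± 0.11 (SE), with the same adjusted p. In 2 members, Mrpl37 and Mrpl4 (uL4m), every exercised library lay below every sedentary one, as did 1.75% of all genes. Mrpl37 had 43.9, 40.2, 42.5 and 42.1 CPM in exercised and 53.7, 48.1, 49.9 and 45.0 CPM in sedentary TME cells. Mrpl4, which was chosen after its values were seen, had 42.3, 43.9, 40.7 and 44.3 CPM in exercised and 54.8, 45.8, 51.5 and 47.5 CPM in sedentary TME cells, at -0.24 ± 0.11 (SE, adjusted p = 0.586, edgeR).

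On the other side, Mrps36 (KGD4) had 1.07, 1.17, 1.38 and 0.976 CPM in exercised and 0.468, 0.361, 0.565 and 1.03 CPM in sedentary TME cells, a log2 fold change of 0.89 ± 0.48 (SE, adjusted p = 0.593, edgeR) on few reads. Mrps22 (0.28 ± 0.19), Mrpl3 (0.20 ± 0.14) and Mrps14 (uS14m, 0.21 ± 0.16) followed, with adjusted p of 0.660 to 0.681. The exercise effects of the members in the 2 sorts did not run together: both were below 0 in 40 of 76, both above 0 in 4 and of opposite sign in 32, with r = -0.05 across members.

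**Figure D5:**
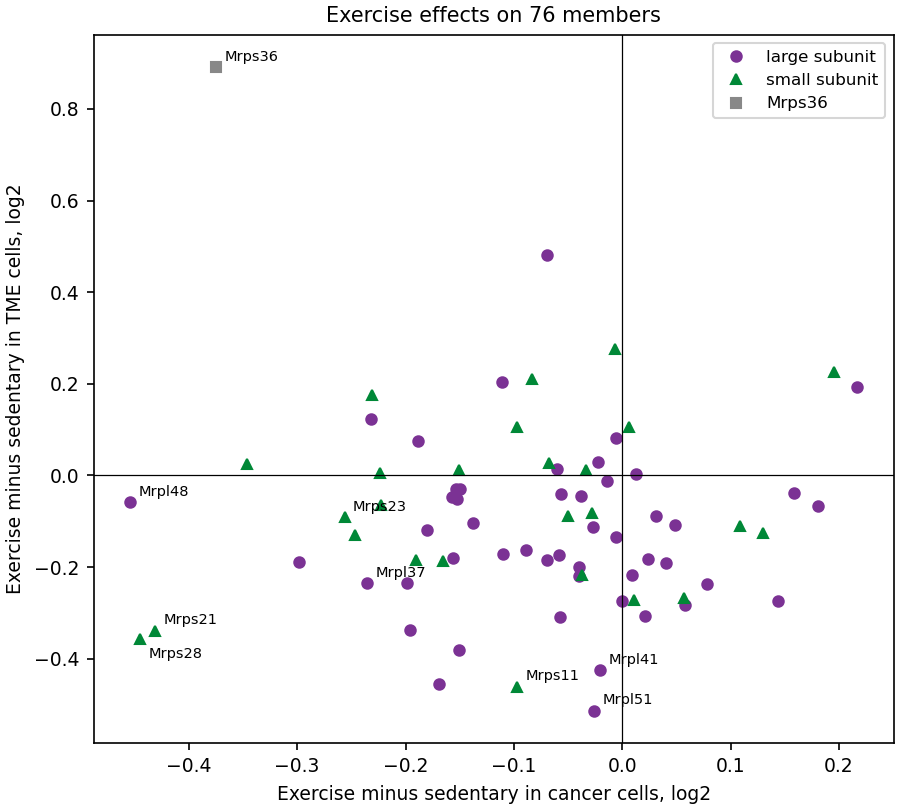
Log2 fold change of 76 members, exercised minus sedentary, in TME cells (vertical) against cancer cells (horizontal), by subunit. Both values are below 0 in 40 of 76 members and of opposite sign in 32. None passed the test on either axis, and Mrps36 stands apart at -0.38 in cancer and 0.89 in TME cells.

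The difference of the exercise effect between the sorts, cancer minus TME, was called for 0 of 76 members and for 0% of 17503 genes. At an unadjusted p under 0.05, 585 genes were higher and 731 lower. Members had a median of 0.03, with 32 of 76 below 0 (42.1%), and the median's sign changed between alternatives, from -0.06 without exercised TME replicate 10 to 0.08 without sedentary cancer replicate 7. The smallest p above 0 were those of Mrpl51 (0.51 ± 0.19, adjusted p = 0.577), Mrpl41 (0.43 ± 0.17, adjusted p = 0.591), Mrps5 (uS5m, 0.35 ± 0.16) and Mrps11 (0.38 ± 0.23), and below 0 those of Mrpl3 (-0.29 ± 0.16), Mrps36 (-1.25 ± 0.71), Mrpl43 (-0.34 ± 0.20) and Mrps22 (-0.27 ± 0.19), in edgeR with SE. None passed.

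Among other genes of the same pathway, calls between the sorts went in both directions, where 27.3% of all genes were called higher and 25.3% lower. Of 5 ribosomal proteins with another symbol, Ptcd3 was called higher in cancer cells (0.78 ± 0.09) and Aurkaip1 lower (-0.56 ± 0.12), while Dap3, Gadd45gip1 and Chchd1 were not called. Of 25 assembly factors tested, 6 were called higher and 10 lower, and 18 lay below 0, with Mterf3 at 0.66 ± 0.10 and the 30S-binding factor Rbfa at -0.99 ± 0.12 (SE). Of 15 mitochondrial translation factors, 2 were called higher, the elongation factor Gfm1 (0.35 ± 0.07) and the mRNA stability factor Lrpprc (0.57 ± 0.07), and 0 lower. Of 17 mitochondrial aminoacyl-tRNA synthetases, 5 were called higher (29.4%) and 4 lower (23.5%), near the shares of all genes, with Yars2 at 0.72 ± 0.11 and Sars2 at -0.47 ± 0.13 (SE).

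Of 13 regulators of mitochondrial gene expression, 4 were called higher (30.8%) and 3 lower (23.1%), also near the shares of all genes. Gabpa, a GABP subunit that binds ETS motifs, was at 0.59 ± 0.10 and Yy1 at 0.70 ± 0.07, both called higher in cancer cells, while Nrf1 was at -0.05 ± 0.07 and not called. Of the 13 mitochondrially encoded mRNAs, which the mitochondrial ribosome translates, all 13 were called lower in cancer cells (median -2.17). That median was -1.05 between the exercised groups, where 4 of 13 were called lower, and -3.19 between the sedentary groups, where TME replicates 4 and 6 stand apart.

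Ict1, the older symbol of Mrpl58, which releases stalled ribosomes, is outside the rule and ran the other way from most members. It had 102 to 161 CPM (median 114) in exercised and 107 to 258 CPM (median 167) in sedentary cancer cells, against 88.6, 73.3, 77.4 and 111 CPM in exercised and 121, 87.9, 107 and 123 CPM in sedentary TME cells. The groups overlapped.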

How the data were processed

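The submitters sequenced poly(A) RNA, extracted with Trizol and prepared with a KAPA Standard mRNA-Seq kit per the labels' protocols, from 23 libraries. The submitters' processing notes name STAR, featureCounts and mm10, without versions, annotation release or strand setting. The values are raw read counts per gene as deposited by the authors in 1 table, whose 23 sample columns were all used. Depth was 15924340 to 37388479 counts, and the members tested had 4 to 4066 counts per library, so counting error is largest for the lowest members.

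Levels are TMM-scaled CPM, with a prior count of 2 on the log2 scale. Tests were edgeR's quasi-likelihood test (edgeR 4.0.16, limma 3.58.1, R 4.3.3; robust, filterByExpr) with Benjamini-Hochberg adjustment over all genes tested and a threshold of 0.05. Exercise was tested within each sort, and the sorts and the difference of the exercise effects in 1 fit of the 4 groups. Alternatives were DESeq2 1.42.0, RLE size factors, no filter, the replicate number as a block, length and GC offsets (splines with 4 degrees of freedom, from GENCODE M21 exons), all libraries in 1 fit, leaving out single libraries, and leaving out sedentary TME replicates 4 and 6. In the fit of the 4 groups the block was the replicate number within each treatment. Members sharing under 5% of exon bases were counted as an alternative chosen after seeing the data. The fits were tested on simulated counts. No 2 libraries of a group agreed within sampling noise, with chi-square per gene of at least 6.36.

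The members and lists were chosen with earlier results of these data known. In each comparison the text names up to 10 members with the smallest p per direction among those past the threshold, or up to 4 where none passed. It also names the Mrps18 paralogs, Mrps30, Mrps36, Mrpl12, Mrpl58, Mrps6 and the 5 highest and 5 lowest per length. Members named for exon sharing, promoter sequence or a neighbouring gene, and Mrpl4, fall outside it. Labels share replicate numbers between groups, but nothing states that a number marks a mouse or a day. Deviations of same-numbered libraries correlated over 0.1 in all 3 exercised cancer and TME pairs (0.14 to 0.24) and in 0 of 4 sedentary pairs (-0.06 to 0.05). Across treatments they did so in 1 of 5 cancer and TME pairs, 1 of 2 TME pairs and 0 of 5 cancer pairs. Libraries of unlike numbers were not compared, so the block is given as an alternative only. Tables were joined in Python 3.11.15 with pandas 2.3.3 and drawn with matplotlib 3.10.9.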

Additional observations from a re-analysis of the deposited data

Results flagged for a closer look

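Among 34 named members in the 4 groups and the libraries' list levels, 144 groups of values were examined for a library far from the rest of its group, and 11 were found, where chance alone gives about 1 in 20. In exercised cancer cells, replicate 1 stood high in Mrpl1 (28.9 CPM) and in Mrpl37 (57.1 CPM), replicate 10 stood high in Mrps21 (12.6 CPM), and replicate 7 stood low in Mrps6 (13.5 CPM). In sedentary cancer cells, replicate 6 stood high in Mrpl33 (37.4 CPM) and replicate 5 in Mrpl42 (27.0 CPM). In exercised TME cells, replicate 7 stood high in Mrpl2 (26.9 CPM). In sedentary TME cells, replicate 9 stood high in Mrpl1 (21.7 CPM) and low in Mrps6 (20.2 CPM), replicate 10 stood high in Mrpl28 (131.0 CPM), and replicate 6 stood low in Mrpl41 (25.99 CPM). No member moved one way with exercise in every cancer library and the other way in every TME library.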

How the results depend on the processing

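The median change of the members between the sorts stayed below 0 under every alternative run, from -0.28 to -0.12 over both treatments, -0.27 to -0.10 between exercised and -0.31 to -0.16 between sedentary groups. The exercise medians ran from -0.09 to -0.02 in cancer cells and from -0.22 to -0.05 in TME cells, and no alternative called a member for exercise or for its difference between sorts. Beside the values below, the cause was not tested.

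With length and GC offsets, Mrpl12 turned to 0.0087 and Mrpl43 to 0.30, 13 members were called higher over both treatments and 7 between sedentary groups, 1 gene was lower with exercise in cancer cells, and cytosolic genes counted 4 higher and 33 lower over both treatments, 2 higher and 14 lower between exercised and 4 higher between sedentary groups. With members sharing under 5% of exon bases, 21 were lower over both treatments and 18 between sedentary groups. Between exercised groups, 1 member was higher with RLE size factors, no filter, DESeq2 or without sedentary TME replicates 4 and 6. With those 2 libraries left out, 2 members and 1 cytosolic gene were higher over both treatments. Between sedentary groups, 12 members and 15 cytosolic genes were then lower. Of all genes, 1881 were higher there, against 3684 with all libraries. With no filter, exercise called 18 genes higher and 10 lower in cancer and 4 higher and 2 lower in TME cells. DESeq2 called 65 higher and 81 lower in cancer cells, 2 of them cytosolic and lower, and 28 higher and 12 lower in TME cells. With all libraries in 1 fit, 1 gene was lower with exercise in cancer cells. The member level in exercised cancer cells had a median of 4.40 without mitochondrially encoded counts and 4.44 as a median over members, and the cytosolic level one of 6.74.

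Whether the replicate numbers pair the samples is not known here. With the replicate block, 3 members were higher over both treatments, 0 higher and 10 lower between exercised groups (1991 and 1526 genes, 13 cytosolic lower), and the difference of exercise effects called 10 genes higher and 4 lower, 1 of them cytosolic and higher.

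Leaving out single libraries gave, between exercised groups, 2254 to 3526 genes higher, 0 to 4 members higher and 14 to 26 lower. Cytosolic genes higher ran from 1 to 2 over both treatments and from 1 to 3 between sedentary groups, where 25 to 46 were lower. The difference of exercise effects called 0 to 3 genes higher and 0 to 49 lower (49 without exercised TME replicate 7), and exercise in cancer cells 0 to 25 higher and 0 to 18 lower (most without sedentary cancer replicate 4). Members with few reads, such as Mrps36 and Mrpl23, were limited by counting error.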
